A study of Mus musculus with 2 samples.

Results

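The genes examined were 10 receptors for lysophospholipids, chosen by name: 5 sphingosine 1-phosphate receptors (S1pr1, S1pr2, S1pr3, S1pr4 and S1pr5) and 5 lysophosphatidic acid receptors (Lpar1, Lpar2, Lpar3, Lpar4 and Lpar6), of 21887 protein-coding genes. These genes are not the whole LPA receptor family, so counts hold for the named members only. Chromatin open to Tn5 transposase was mapped by ATAC-seq in nuclei of hepatic stellate cells, which line the liver sinusoid as pericytes and store retinoid. There was 1 group, of 2 samples (replicates A and B). By the labels these were control mice of strain C57BL6/JBomTac, healthy and fed chow, with an mCherry-Rpl10a-Flop allele at Gt(ROSA)26Sor and a Tg(Lrat-cre)1Rshw transgene. Nuclei were sorted on mCherry-RPL10A, so the cells profiled are those in which a Cre driven by Lrat had been active. Age is not given, and the labels do not say whether the replicates are different animals, so differences between them may be technical. No condition was compared with another and no test between groups exists. In the list of B, but not in that of A, the peak names carry a word for oil. The label of B, chow and control, does not explain that word, so whether B was handled like A is not known. Counts are therefore also given for A alone.

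Sphingosine 1-phosphate (S1P) and lysophosphatidic acid (LPA) are small signalling lipids that act outside the cell through G protein-coupled receptors. S1P is made from sphingosine by sphingosine kinases, and extracellular LPA is made largely by the enzyme autotaxin. Their receptors couple in different combinations to Gi, Gq and G12/13, and act on contraction and migration of cells such as pericytes and smooth muscle. The S1P receptors and Lpar1, Lpar2 and Lpar3 belong to the EDG family, while Lpar4 and Lpar6 are related to the P2Y nucleotide receptors.

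Replicate A held 36577 peak entries and B held 28794. Entries of A with at least 1 bp in common with an entry of B, 23452 in all, are termed replicated peaks. Read depth is unknown, since the lists give no counts, and nuclei were profiled in bulk, so a site open in few nuclei and one weakly open in all cannot be told apart. The labelled cell type matched its markers: 8 of 8 stellate genes had a replicated peak in the gene body, where 48.7% of all protein-coding genes had one, against 1 of 5 hepatocyte genes, 2 of 5 sinusoidal endothelial genes, and 0 of 5 Kupffer and myeloid, 0 of 5 lymphocyte and 0 of 5 cholangiocyte genes. With 20 kb on either side added, the counts were 8 of 8, 1 of 5 (Cyp2e1, with 4 peaks), 2 of 5, 1 of 5 (Cd68, with 4), 3 of 5 and 1 of 5, where 64.6% of all genes had one. In the same order, median gene lengths were 34.0, 11.2, 46.2, 25.6, 6.70 and 5.94 kb. Over all genes the share with a body peak was 38.6% in length decile 3 and 60.5% in decile 7. These marker lists were chosen with earlier results of these data known, and no difference between them was tested. Coordinates are 1-based in mm10. Fold enrichment over local background comes from the authors' peak calling, and a percentile is its rank within its own list, with 100 the highest.

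The receptors fell into 3 patterns. S1pr2, S1pr3 and Lpar1 each had replicated peaks in the gene body, 1 of them over an annotated start of the gene. S1pr4, S1pr5 and Lpar2 had replicated peaks only in the flanking 20 kb, each over the start of a neighbouring gene. S1pr1, Lpar3, Lpar4 and Lpar6 had no replicated peak in the body or in the 20 kb on either side, a span called the locus here. In all, 6 of 10 loci had a replicated peak, where 64.6% of all protein-coding genes had one, so the share is near that of genes at large. In the gene body the count was 3 of 10 against 48.7%, and within 1 kb of either end of the gene 3 of 10 against 41.9%. The median per locus was 1 replicated peak for the receptors and 1 for all genes, and the means were 1.7 and 1.55. With A alone, 6 of 10 loci held an entry (71% of all genes), and with B alone 7 of 10 (67.6%).

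**Figure D1:**
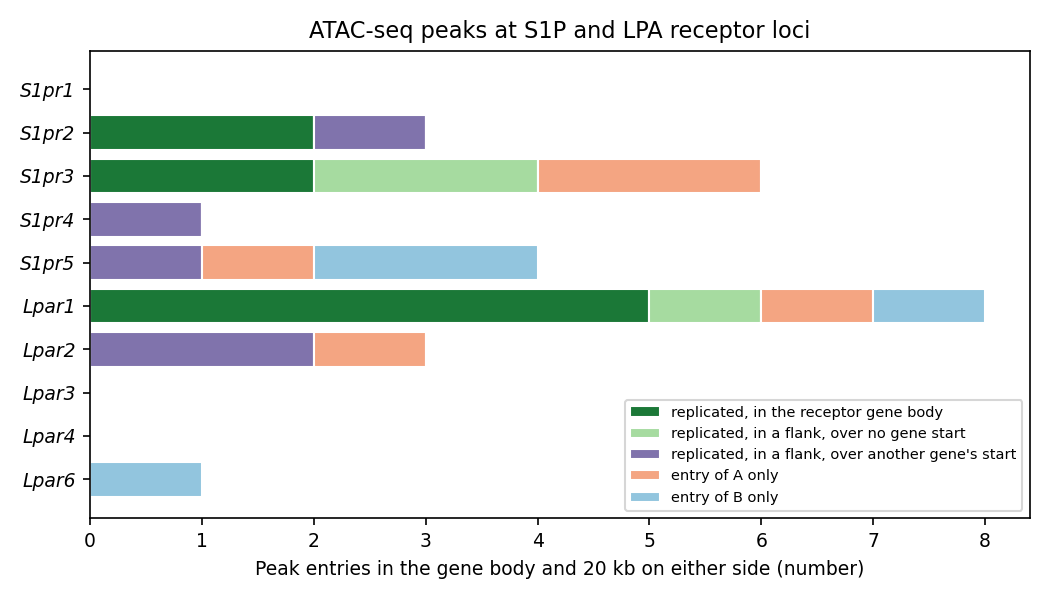
Number of peak entries (x axis) in the locus of each receptor (y axis), split by colour into replicated peaks in the receptor body, in a flank over no gene start, and in a flank over another gene's start, and entries of 1 list only. Replicated peaks in the body appear at S1pr2 (2), S1pr3 (2) and Lpar1 (5), while the replicated peaks of S1pr4, S1pr5 and Lpar2 all lie over other genes' starts.

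Of the 17 replicated peaks in these loci, 9 lay in receptor bodies and 8 in flanks. A further 5 entries were in A alone and 4 in B alone. Thus 17 of 22 entries of A were replicated (77.3%, 95% Wilson interval 56.6 to 89.9%), where 64.1% of its whole list was, and 17 of 21 entries of B (81.0%, 60.0 to 92.3%), where 81.7% of its whole list was. The intervals cover counting error only and contain the value of the whole list in both replicates. Summits of the 17 peaks lay a median of 14 bp and at most 50 bp apart between replicates.

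Among the S1P receptors, S1pr2 couples mainly to G12/13. It lies on the minus strand at chr9:20965952-20976793 and had 3 entries in A and 3 in B, all replicated. The peak over its start, at chr9:20976696-20976865 in A, was enriched 6.40-fold in A and 8.46-fold in B, with its summit 2 bp inside the transcript. Another in the body, at chr9:20972702-20973025, had 6.12 in A and 7.33 in B. Both were weak for their lists, at mean percentiles of 22.3 and 12.9, and both were higher in B. The third, at chr9:20952798-20953057 with 17.3 in A and 17.6 in B, lay 12.9 kb beyond the 3′ end of S1pr2, over a start of Dnmt1, which encodes the maintenance DNA methyltransferase.

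S1pr3, which couples to Gi, Gq and G12/13, lies on the plus strand at chr13:51408618-51422797. It had 6 entries in A and 4 in B, of which 4 were replicated. The peak over its start, at chr13:51408511-51408809, had 9.48 in A and 11.1 in B. A stronger one 9.17 kb inside the gene, at chr13:51417787-51418114, had 11.7 in A and 15.4 in B, at a mean percentile of 75.3, the highest of the 9 peaks in receptor bodies. Upstream, a peak at chr13:51395658-51395954 had 12.5 in A and 8.61 in B, and one at chr13:51390320-51390587 had 8.28 in A and 13.1 in B. The nearer of these lay 12.7 kb before the gene, no protein-coding gene was nearer to them than S1pr3, and their order reversed between replicates. They and both body peaks also lie inside Gm32834, an antisense long noncoding RNA gene that runs through the start of S1pr3, so they cannot be given to one gene or the other. The entries of A alone lay in the body (9.74) and in the neighbouring gene Shc3 (7.27). The first of these crosses the 5′ boundary of Gm32834, at chr13:51418712.

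Lpar1 encodes the most widely expressed of the LPA receptors. It covers 119 kb on the minus strand at chr4:58435252-58554027 and had 7 entries in A and 7 in B. Of these, 6 were replicated, against 4 at S1pr3. That order turned when each replicated peak was given to its nearest protein-coding gene at any distance, with 10 at S1pr3 and 8 at Lpar1, and among entries above the median −log10 q both had 2. In RefSeq the gene has 3 start windows, and 1 replicated peak covered the middle start (chr4:58553293), at chr4:58553189-58553416, with 9.27 in A and 8.18 in B. Its summit in A lay 20 bp inside that transcript, and only its B entry reached the window of the outermost start. A peak 5.88 kb further into the gene, at chr4:58547249-58547413, had 6.34 in A and 7.69 in B. One at chr4:58508922-58509202 had 9.33 in A and 8.16 in B, and lay 9.52 kb before the most internal start, whose own window held no entry of either list. A close pair near the 3′ end, at chr4:58447052-58447314 and chr4:58447936-58448120, had 12.9 and 9.76 in A and 10.3 and 8.51 in B. The strongest peak of the locus lay 11.7 kb beyond the 3′ end, at chr4:58423190-58423513, with 15.8 in A and 15.3 in B, and no protein-coding gene lay nearer to it than Lpar1. The entry of A alone lay 14.4 kb upstream (7.16), and that of B alone in the body (8.88). Exons and introns were not told apart, as the gene table gives only spans.

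Per kb of body, the order of these 3 genes differed from that by replicated peaks per locus. Replicated body peaks per kb were 0.184 at S1pr2, 0.141 at S1pr3 and 0.0421 at Lpar1. The values for each list that follow count all its body entries, replicated or not. S1pr2 had 0.184 entries per kb of body in A and 0.184 in B. S1pr3 had 0.212 in A and 0.141 in B, and Lpar1 0.0421 in A and 0.0505 in B. By all entries S1pr2 and S1pr3 thus changed places between replicates, through the body entry of S1pr3 found in A alone, while Lpar1 was below both in each. That entry also crosses the 5′ boundary of Gm32834. Among genes of the same length decile, 88.9% had as many replicated peaks per locus as S1pr2 or fewer, 95.3% as many as S1pr3 or fewer, and 88.5% as many as Lpar1 or fewer. Without ties, 76.7%, 89.4% and 84.4% had fewer. The count at S1pr2 includes the peak over a start of Dnmt1.

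**Figure D2:**
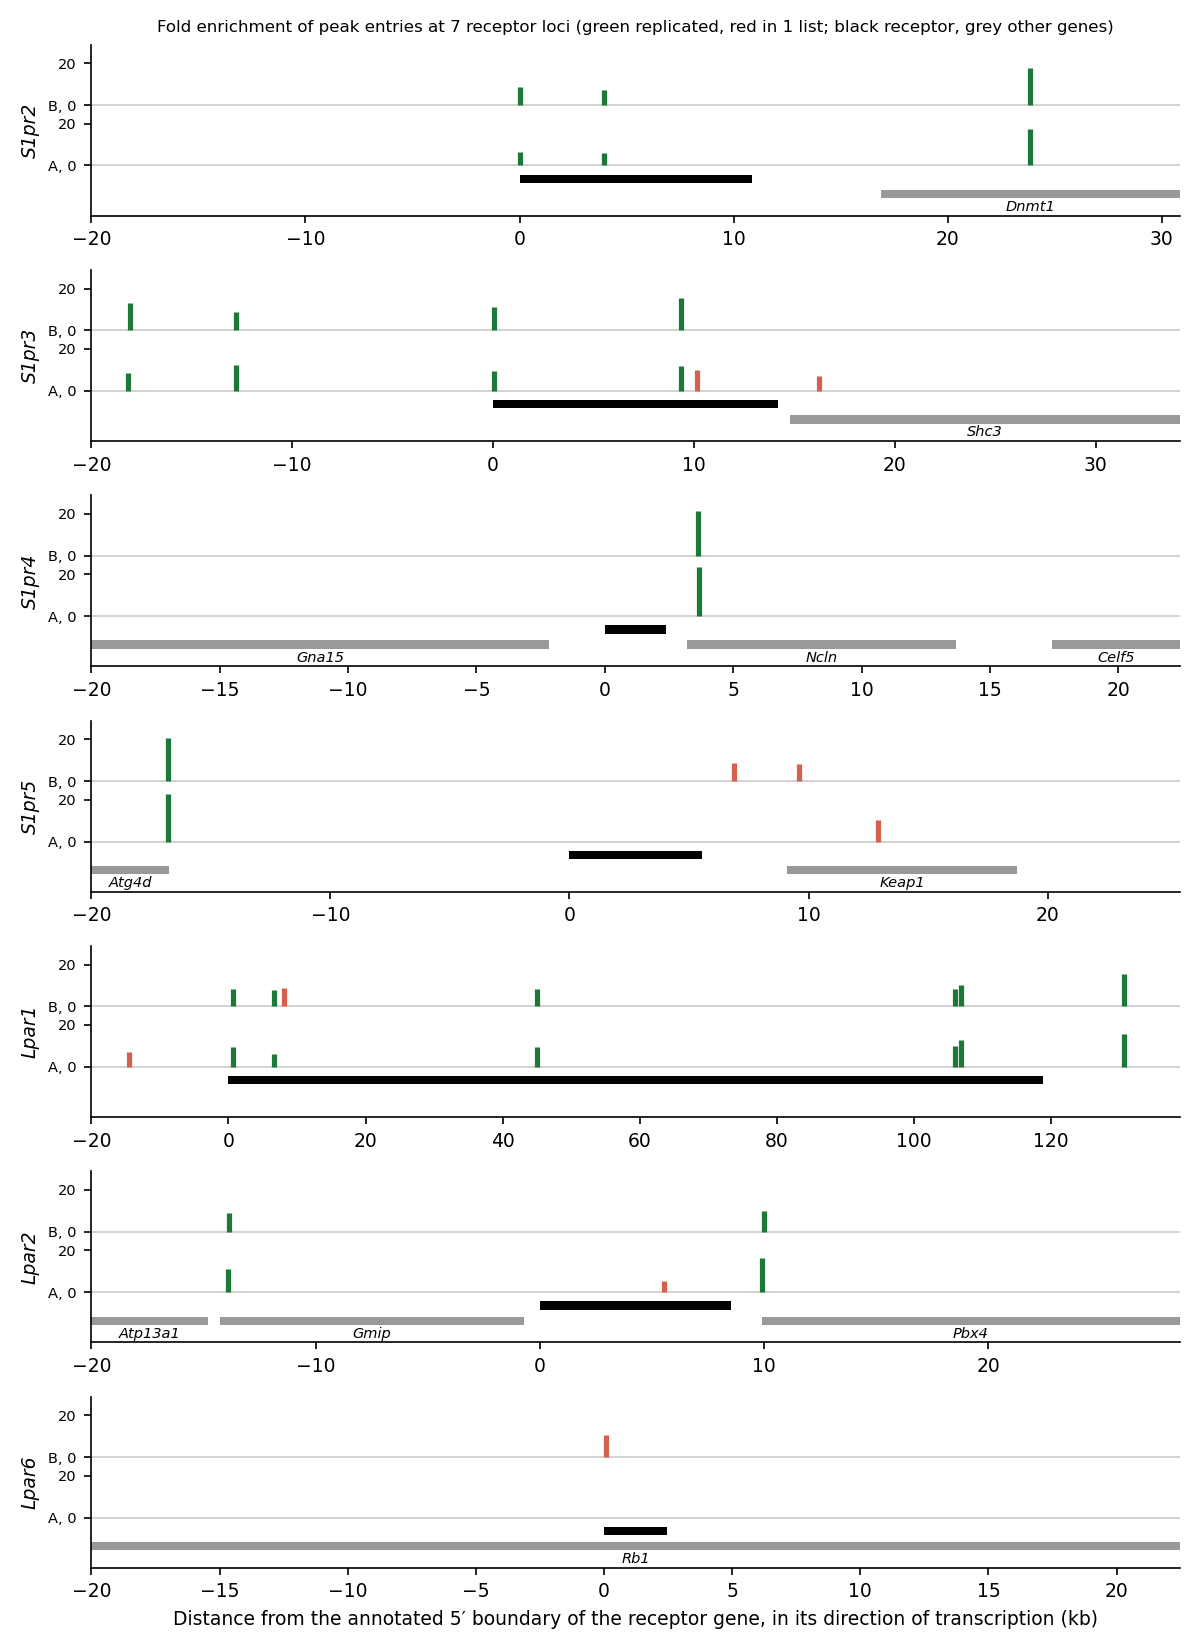
Position of each peak entry along 7 receptor loci (x axis, distance in kb from the 5′ boundary of the receptor gene in its direction of transcription, with a separate scale for each gene) and its fold enrichment in A and B (bar height, from 0, with a mark at 20). Green bars are replicated and red bars are in 1 list; the black bar is the receptor and grey bars are other protein-coding genes, so that the peaks of S1pr4, S1pr5 and Lpar2 can be seen at the edges of their neighbours.

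The sequence at the starts of the open receptors is shown with the part that lay in an entry of both replicates in capitals. Each runs 5′ to 3′ on the strand of the gene, from 200 bases before the annotated start through the first 30 bases of the transcript (RefSeq, GRCm38.p6, the assembly of mm10). A start window existed for 9 of the 10 receptors.
S1pr2, chr9:20976764-20976993, minus strand: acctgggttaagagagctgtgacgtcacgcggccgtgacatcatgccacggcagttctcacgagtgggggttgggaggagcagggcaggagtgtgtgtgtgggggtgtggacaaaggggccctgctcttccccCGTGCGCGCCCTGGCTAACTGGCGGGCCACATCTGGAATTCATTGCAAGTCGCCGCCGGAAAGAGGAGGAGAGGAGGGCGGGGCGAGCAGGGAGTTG
S1pr3, chr13:51408418-51408647, plus strand: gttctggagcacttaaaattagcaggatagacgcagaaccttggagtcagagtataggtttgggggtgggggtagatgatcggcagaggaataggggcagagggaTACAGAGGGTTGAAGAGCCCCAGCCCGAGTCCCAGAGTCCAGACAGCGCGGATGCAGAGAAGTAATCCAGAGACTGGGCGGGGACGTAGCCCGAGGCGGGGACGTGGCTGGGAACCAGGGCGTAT
Lpar1, chr4:58553264-58553493, minus strand: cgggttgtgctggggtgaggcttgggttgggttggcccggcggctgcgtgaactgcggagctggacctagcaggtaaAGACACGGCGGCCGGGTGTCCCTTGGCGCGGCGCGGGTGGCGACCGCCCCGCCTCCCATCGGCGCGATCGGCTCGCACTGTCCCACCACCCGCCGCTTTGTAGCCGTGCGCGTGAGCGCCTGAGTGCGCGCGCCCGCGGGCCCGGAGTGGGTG
The capitals cover 97 bases at S1pr2, 125 at S1pr3 and 153 at Lpar1, and in each they run through the start into the transcript.

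The remaining S1P receptors had no replicated peak of their own. S1pr1, the receptor of endothelial cells and of lymphocyte egress, at chr3:115710433-115715055, had 0 entries in A and 0 in B. Its nearest replicated peak was 173 kb away, and 14.5% of protein-coding genes lay as far from one or farther. S1pr4, a receptor of blood cells at chr10:81497745-81500137, had 1 entry in A and 1 in B. That peak, at chr10:81496303-81496673, was strong, with 23.7 in A and 21.2 in B at a mean percentile of 98.3. It lay 1.07 kb beyond the 3′ end of S1pr4, over the start of Ncln, which encodes the endoplasmic reticulum protein nicalin.

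S1pr5, a receptor of natural killer cells and oligodendrocytes at chr9:21242917-21248443, had 2 entries in A and 3 in B, 1 of them replicated. The replicated peak, at chr9:21265081-21265405 with 22.6 in A and 20.8 in B, lay 16.6 kb upstream over the start of the autophagy protease gene Atg4d. The other entry of A (10.4) and 1 of B (8.13) lay in Keap1, which encodes a sensor of oxidative stress, and did not overlap. The last entry of B (8.53), 1.26 kb beyond the 3′ end of S1pr5, lay in no gene. It was the nearest to S1pr5 in either list and was absent from A.

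Among the other LPA receptors, Lpar2, an EDG family receptor at chr8:69822565-69831102, had 3 entries in A and 2 in B. A replicated peak over the start of Pbx4, a homeobox gene, at chr8:69832306-69832636, had 16.4 in A and 9.80 in B and lay 1.20 kb beyond the 3′ end of Lpar2. The other, over the start of Gmip at chr8:69808584-69808772, had 11.1 in A and 9.18 in B. The only entry in the body of Lpar2, in A alone, was among the weakest of its list, with 5.21 at percentile 1.08. The window at the start of Lpar2 held no entry.

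Lpar3, at chr3:146220961-146286214, is a long EDG family receptor gene of 65.3 kb and had 0 entries in A and 0 in B. Of genes in the same length decile, 76.5% had a replicated peak in the locus. Its nearest replicated peak was 118 kb away, where 17.8% of genes lay as far from one or farther. Lpar4, a P2Y-like receptor on the X chromosome at chrX:106920625-106933899, likewise had 0 entries in A and 0 in B, and its nearest replicated peak was 287 kb away, where 10.4% of genes lay as far from one or farther. Neither gene lies within 20 kb of another gene in the table, and the same holds for S1pr1.

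Lpar6, the other P2Y-like receptor, at chr14:73237891-73240358, lies inside Rb1, the retinoblastoma tumour suppressor gene. It had 0 entries in A and 1 in B. The entry of B, at chr14:73237866-73238074, covered the annotated start with a fold enrichment of 10.6, at percentile 59.5 of its list. The replicates therefore differ at Lpar6: without A the gene has an open start, and without B it has none. The nearest replicated peak lay 28.3 kb away.

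The sequence at the start of Lpar6 is set beside that of S1pr5 and Lpar3, whose start windows held the most CpG dinucleotides among the receptor windows without an entry. Capitals mark the bases inside the entry of B, and the spans are as above.
Lpar6, chr14:73237691-73237920, plus strand: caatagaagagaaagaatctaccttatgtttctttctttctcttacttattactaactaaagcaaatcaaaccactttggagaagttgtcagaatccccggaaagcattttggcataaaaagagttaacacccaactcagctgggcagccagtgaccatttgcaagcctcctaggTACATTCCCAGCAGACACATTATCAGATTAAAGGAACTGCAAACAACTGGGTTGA
S1pr5, chr9:21248414-21248643, minus strand: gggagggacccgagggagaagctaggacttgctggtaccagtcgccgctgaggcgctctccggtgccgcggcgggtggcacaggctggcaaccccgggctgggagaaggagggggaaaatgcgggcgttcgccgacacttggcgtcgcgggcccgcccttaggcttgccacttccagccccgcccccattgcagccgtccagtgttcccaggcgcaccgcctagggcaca
Lpar3, chr3:146220761-146220990, plus strand: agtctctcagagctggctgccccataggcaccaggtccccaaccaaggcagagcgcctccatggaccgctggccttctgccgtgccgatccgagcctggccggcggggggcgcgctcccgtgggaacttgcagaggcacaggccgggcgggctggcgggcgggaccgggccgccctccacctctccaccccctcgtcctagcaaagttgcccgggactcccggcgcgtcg
At Lpar6 the capitals cover 55 bases.

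Windows of 300 bp, from 250 bp before a start to 50 bp into the transcript, were compared with all 21263 such windows of protein-coding genes. A replicated peak touched a window of 3 of 9 receptors, against 40.6% of the 17492 genes with a window. Over all windows, the share with a replicated peak went from 1.22% in the decile with the fewest CpGs to 69.3% in decile 8 and was 60.6% in decile 10. The open windows of S1pr2, S1pr3 and Lpar1 held 18, 14 and 37 CpGs. Of windows within 2 CpGs of these, 61.5%, 50.5% and 64.6% had a replicated peak. The other windows of Lpar1 held 3 and 14 CpGs and had no replicated peak, where the shares were 3.96% and 50.5%. The windows of S1pr5, with 27 CpGs, and Lpar3, with 25, held no entry of either list, although 68.9% and 69.9% of windows within 2 CpGs of theirs had a replicated peak. The window of Lpar2, with 15 CpGs, was also without an entry, where 53.3% of like windows had a replicated peak. Lpar4 had 6 CpGs, and 10.8% of like windows had a replicated peak. S1pr4 and Lpar6 had 1 CpG each, where the share was 2.24%. The entry of B at Lpar6 lies in a window of a kind that seldom held a replicated peak. How often such windows held an entry of B alone was not counted, so the 2.24% is not a like measure for it.

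**Figure D3:**
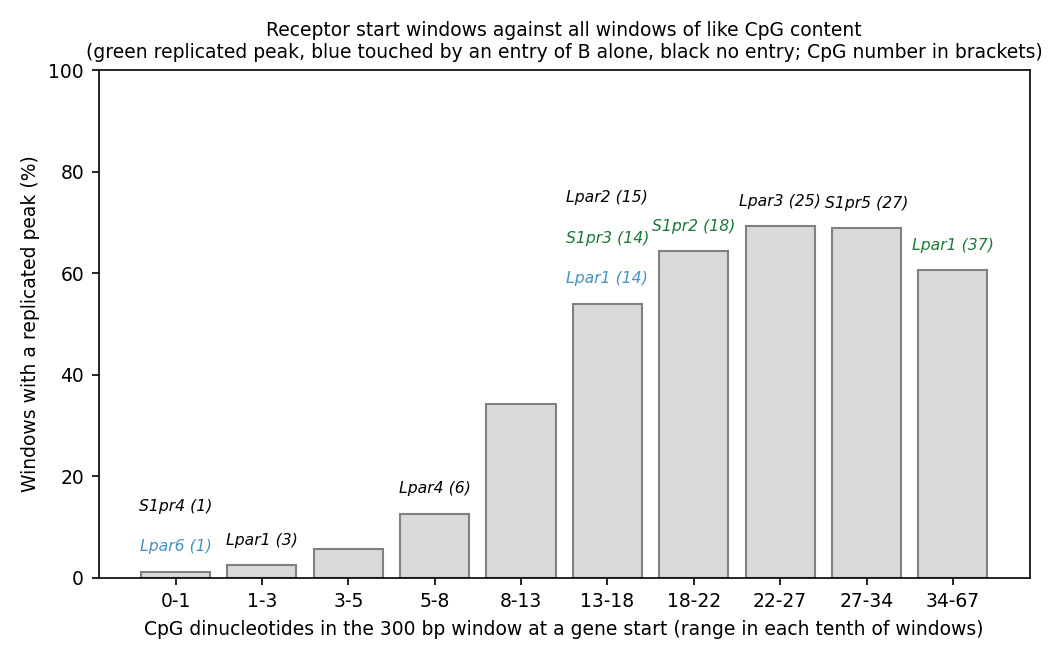
Percentage of start windows with a replicated peak (y axis, bars from 0) in each decile of all windows by number of CpGs (x axis), with the receptor windows written above their decile. Windows with a replicated peak (green) are those of S1pr2, S1pr3 and 1 of 3 of Lpar1, while S1pr5 and Lpar3 (black) stand in deciles where 68.9% and 69.3% of windows had one.

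In the receptor windows 11 motifs were searched on both strands: the GC box GGGCGG, the CCAAT box CCAAT, the TATA box TATAAA, the TEAD motif GGAATG, the AP-1 motif TGANTCA, the ETS motif CCGGAA, the GATA motif AGATAA, the CREB motif TGACGTCA, the E-box CACGTG, the NFI half-site TTGGCA and the nuclear receptor half-site AGGTCA. Positions count the first transcribed base as 0. The GC box was in 46.2% of all windows and in 8 of the 11 receptor windows, which belong to 7 of 9 receptors. It lay from 8 to 13 at S1pr2, from -20 to -15 at S1pr3 and, on the other strand, from -80 to -75 at Lpar1, in each case within the capitals shown above. It was also in the windows of S1pr5, Lpar2, Lpar3 and Lpar4, which held no entry. S1pr2 held CCGGAA from -12 to -7, inside its peak (18.7% of all windows), and TGACGTCA from -181 to -174, before its peak (2.23% of all windows). Lpar6 held GGAATG on the other strand from -23 to -18, inside the entry of B (13.6% of all windows), and CCGGAA from -103 to -98, before that entry. The AP-1 letters were at Lpar2 only (6.99% of all windows), and the GATA letters at none (9.65% of all windows). The only motifs that shared bases were the GC box and a CCAAT of Lpar4. These matches describe letters in a window and not binding.

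The peaks at the receptors' own starts were of low to middle strength. By mean percentile, the start peaks of S1pr2, S1pr3 and Lpar1 stood at 22.3, 54.5 and 38.0. The median over 6215 replicated peaks at starts of protein-coding genes was 80.3, and all 3 lay below it. The flank peaks over starts of Dnmt1, Ncln, Atg4d, Gmip and Pbx4 stood at 90.7, 98.3, 97.6, 52.9 and 69.1, so that S1pr3 lay above Gmip and the other receptor starts lay below every neighbour. For the 6 receptor body peaks away from protein-coding starts the median was 40.4, against 53.1 over all such peaks in protein-coding bodies. Of the 6, 4 lay below that value. Starts of noncoding genes were not considered here. The highest of the 6, in S1pr3, lies inside Gm32834 and towards its 5′ boundary. With so few peaks, no test was made of these differences.

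**Figure D4:**
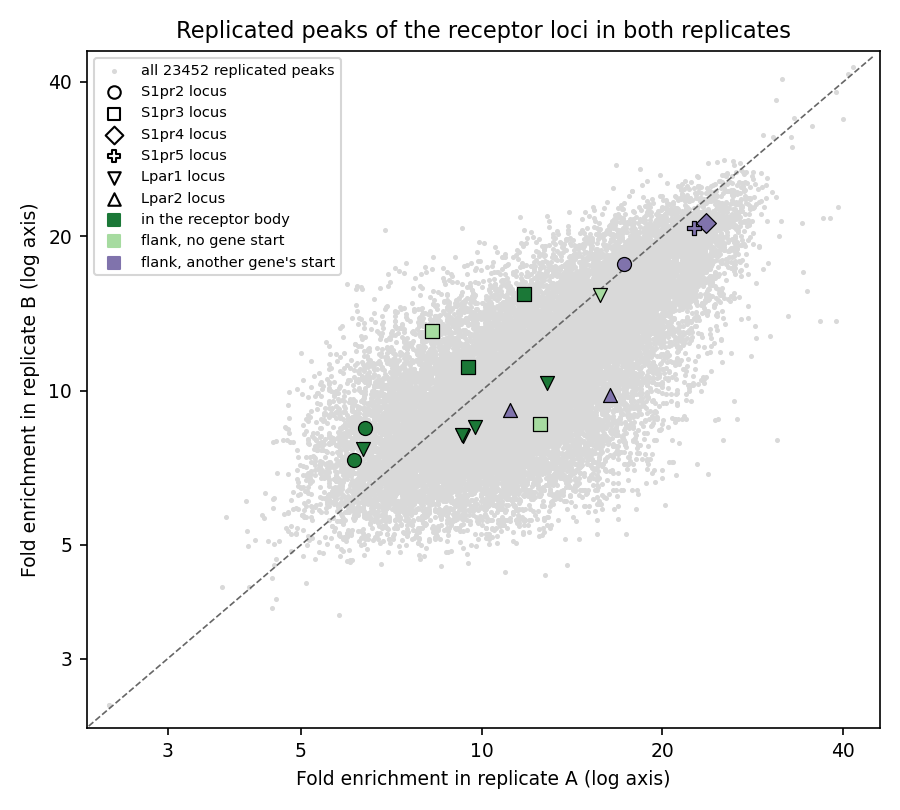
Fold enrichment in replicate A (x axis) and B (y axis), both on log axes, of the 17 replicated peaks of receptor loci (large symbols, shape for the locus and colour for the place) and of all 23452 replicated peaks (grey dots), with a dashed line of equality. Peaks in receptor bodies (dark green) lie between 6.12 and 12.9 in A, below the flank peaks at Dnmt1, Ncln and Atg4d, which lie between 17.3 and 23.7.

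The replicates gave like values at most of these peaks. The ratio of B to A ran from 0.598 at the Pbx4 start to 1.58 at the far upstream peak of S1pr3, with a median of 0.921. Over all replicated peaks the median was 0.901 and the central 95% ran from 0.512 to 1.56. Only the upstream peak of S1pr3 lay outside that range. Of the 17 peaks, 10 were higher in A and 7 in B. In 5 of the 9 peaks in receptor bodies, 4 of them at S1pr2 and S1pr3 and 1 at Lpar1, the value was higher in B, whereas A was higher in 66.3% of all replicated peaks.

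Most genes that make, move or remove the ligands had replicated peaks. Their median length was 21.5 kb for S1P, against 5.53 kb for the S1P receptors, and 39.5 kb for LPA, against 65.3 kb for the EDG family and 7.87 kb for the P2Y-like LPA receptors. No difference between lists was tested. For S1P, 11 of 11 genes had one in the locus (64.6% of all genes) and 8 of 11 in the body (48.7% of all genes). Sphk2, a sphingosine kinase gene, had 4 (2 in the body), and Spns2, which encodes the S1P exporter, had 2 (1 in the body). The ceramidase gene Asah1 had 2 (1 in the body) and Apom, which encodes the plasma carrier of S1P, had 2, both outside the gene. For LPA, 9 of 10 genes had one in the locus and 8 of 10 in the body. Agpat1, whose product consumes LPA in phospholipid synthesis, had 5, of which 1 was in the body. Pnpla3 and the phospholipase genes Pla1a and Liph had 2 each, with none in the body of Liph. Plpp2, a lipid phosphatase gene, had only 1 entry of A. Enpp2, which encodes autotaxin and was picked outside the naming rule, had 1 replicated peak, in its body.

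Downstream of the receptors, all 8 G protein genes had a replicated peak in the body, where 48.7% of all genes had one and 62.1% of genes in the length decile of the list's median (50.7 kb). Gna13 had 6 in the locus (3 in the body) and Gna12 had 4 (3 in the body). These encode the alpha subunits of G12 and G13. Gnai2 had 3 and Gna11 had 2. Of genes that switch off or internalise receptors, 8 of 9 had one in the locus (64.6% of all genes) and 8 of 9 in the body (48.7%). The regulator of G protein signalling gene Rgs3 had 9, the arrestin gene Arrb1 had 7, the receptor kinase gene Grk5 had 5, and Rgs5, also a pericyte marker, had 4. Rgs16 had 1 entry in A and 1 in B, which did not overlap.

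Other receptor families of contractile cells also had members with and without peaks, to be read against 64.6% of all genes by locus and 48.7% by body. Among endothelin and angiotensin receptors, 3 of 5 had a replicated peak in the locus, near the share of all genes, and 3 of 5 in the body. Agtr1a and Ednrb had 5 each and Ednra had 3, while Agtr1b and Agtr2 had no entry. Among prostanoid receptors, 5 of 8 had one in the locus and 3 of 8 in the body. Ptger2 had 4, of which 3 were in the body, and the 5 at Ptgir were all outside the gene. Among adrenergic receptors, 4 of 9 had one in the locus and 2 of 9 in the body, with 6 at Adra1b. Median gene lengths of the 3 families, in the order given, were 46.5, 9.5 and 4.0 kb. Over all genes, 62.1%, 45.5% and 29.3% had a body peak in the length deciles that hold these medians. The S1P and LPA receptors, with 6 of 10 and 3 of 10, lay within the range of these families. No difference between families was tested.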

How the data were processed

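ATAC-seq was run on sorted nuclei in 2 samples of 1 group. Per the submitters' processing notes the build is mm10, and STAR 2.7.0, MACS2, HOMER, SAMtools, Picard and bedtools were used in roles not stated. No source used here says whether reads were shifted for the Tn5 offset. Peaks were deposited as 1 list per sample, without a header. The authors deposited for each peak a fold enrichment (a ratio over local background), a −log10 p, a −log10 q and a summit offset. These values are not scaled between lists, so they were ranked within a list.

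Counts were made in Python 3.11.15 with numpy 2.4.6 and pandas 2.3.3. Intervals used statsmodels 0.14.6 and figures matplotlib 3.10.9. Gene spans, start windows and sequences came from RefSeq tables of GRCm38.p6. A replicated peak took the coordinates of A. Of 21887 protein-coding genes, 17492 had a start window. All receptors and listed genes matched by symbol or synonym. The overlap and counting functions were tested on simulated data. All receptors are named, as is the nearest protein-coding gene of each of their replicated peaks. From each other list, up to 4 genes with the most replicated peaks and up to 2 with none (longest first) could be named. The members and lists were chosen with earlier results of these data known, and 1 pathway list is not reported here. Alternatives covered the replicates used, overlap, peak threshold, flank, assignment, split entries, gene-end window and rank measure.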

Additional observations from a re-analysis of the deposited data

How the results depend on the processing

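With 1 replicate left out, the replicated peaks over the 10 loci, 17 in all, became 21 to 22 entries, the genes with one in the locus 6 to 7, in the body 4 to 4 and at a gene end 3 to 4. Of all genes, 67.6% (B alone) and 71.0% (A alone) then had one in the locus. In the body the shares were 51.8% and 55.5%, and at a gene end 44.8% and 47.0%. Lpar6 was the gene gained from B alone, and Lpar2 was gained in the body from A alone. Reciprocal overlap of 50%, merging split entries and counting from B changed none of these 4 counts. With the lower-scoring entries of each list removed (at or below its median −log10 q) there were 8 replicated peaks. Then 6 loci kept one (52.7% of all genes) and 2 bodies (36.3%). A gene-end peak was left at 1 receptor, S1pr3 (31.1% of all genes). With the 10000 strongest entries of each list there were 5 peaks, at 5 loci (41.6% of all genes). In the body 1 receptor was left open (S1pr3, against 26.6% of all genes) and at a gene end 0 (23.2%). With 10 kb on either side there were 11 peaks at 5 loci (59.3% of all genes). With 50 kb there were 32 at 7 loci (73.5%). Giving each peak to the nearest protein-coding gene at any distance left 3 receptors with a peak (51.6% of all genes), while the peaks rose to 20: 2 at S1pr2, 10 at S1pr3 (4 by locus) and 8 at Lpar1. A gene-end window of 2500 bp counted 5 receptors (46.3% of all genes), adding S1pr4 and Lpar2, and 500 bp counted 2 (39.0%), without Lpar1. The strongest replicated peak of a locus had a median percentile of 87.8 by fold enrichment and 84.2 by −log10 q. At S1pr2, S1pr4, S1pr5 and Lpar2 that peak lay over another gene's start, and at Lpar1 it lay beyond the 3′ end. Only at S1pr3 was it in the receptor body. The median percentile of all receptor body peaks by fold enrichment was 38.1. Of 176 values for single genes under these alternatives, 142 stayed within 1.5 times (or 1 SD for percentiles) and 34 did not. Counts of 0 that remained 0, as always at S1pr1, Lpar3 and Lpar4, are among those that stayed. The 142 are therefore no measure of how stable the counts are at receptors with peaks. Depth is unknown, so a closed site and one too thinly covered to be called cannot be told apart. No paired analysis was possible because there is 1 group.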
